A study of Homo sapiens with 12 samples.

Results

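The genes described here are the CAS adhesion scaffolds (NEDD9, BCAR1, EFS, CASS4), the 4 tensins (TNS1, TNS2, TNS3, TNS4), and paxillin (PXN) and focal adhesion kinase (FAK, encoded by PTK2), which work beside them. They were chosen by gene symbol, 10 in all, and 9 are among the 19907 symbols of each library. EFS is not analysed here. All 9 had at least 10 reads summed over the libraries and were among the 18579 genes tested. NEDD9 and TNS4 were selected on their values in these libraries, since both were already known to differ between the cell lines and in their response to TGFβ1, so their values are given as a description with no test. The other 7 listed genes were brought in as relatives or binding partners of that pair, also with earlier results of these data known.

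The RNA came from MDA-MB-231, a human triple-negative breast cancer cell line with mesenchymal features. One line, wt-GR, has unedited glucocorticoid receptor (GR) and is a single non-targeted clone recovered from the CRISPR/Cas9-treated population. The other, S134A-GR clone #1, is a single clone whose GR carries alanine in place of Ser134 on both alleles. Both lines were starved for 18 h in IMEM with 1% charcoal-stripped serum (DCC). They were then given TGFβ1 at 10 ng/mL, or vehicle alone, over 6 h. This makes 4 groups of 3 replicates, or 12 libraries. Messenger RNA libraries were made with a TruSeq kit and sequenced as pairs of 75-base reads. Each line is 1 clone, so the effect of the mutation and that of the clone cannot be told apart. The labels do not say whether replicates were separate cultures, and p-values measure only the spread between these samples. In bulk RNA, fewer cells with a transcript and less transcript per cell also cannot be told apart.

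CAS proteins are adaptors without enzyme activity. Integrin engagement brings FAK and SRC to them, the kinases phosphorylate their central substrate domain, and the phosphorylated sites recruit CRK and the exchange factor DOCK1, which activates RAC at the leading edge of migrating cells. Tensins bind the tails of β integrins, and TNS1, TNS2 and TNS3 also bind actin filaments, while TNS4 (also called CTEN) lacks the actin-binding part. NEDD9 is a known TGFβ-induced gene linked to migration and invasion in breast cancer cells.

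The deposited values are normalized counts, that is, reads per gene divided by a size factor of the library. Recovered totals were 56362036 to 129832227 reads per library, and 3 reads, taken as the floor of detection for counting error only, corresponded to 2.15 to 4.89 normalized counts. Every total exceeds the average read number that the labels state, and whether the mates of a pair were counted separately is not given, so 3 reads may stand for fewer than 3 fragments. NR3C1, which encodes GR, had 10444 to 12729 normalized counts in vehicle-treated wt-GR cells and 8516 to 8971 in S134A-GR cells (log2 difference −0.41, limma adjusted p = 0.00012). A gene-level count does not show the edited codon. Of the markers of the line, VIM (419832 to 533198 normalized counts over the 12 libraries), CD44 and EGFR were high. Of the genes it should lack, ESR1 reached at most 7.32 and CDH1 at most 12.5. PGR, also one it should lack, is not among the symbols and could not be read.

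Promoter sequence is shown for NEDD9, the gene with the largest response to TGFβ1 among the genes listed above. The RefSeq-derived table for GRCh38.p14 matched 6 of the 9 listed genes and gave NEDD9 3 annotated starts, of which the outer pair lie close together and have overlapping windows. A window is the 250 bases before a start, on the strand of the gene. In the outermost window (chr6:11382349-11382598, GRCh38, minus strand) capitals mark the only match to AGAACA, a half-site letter string bound by GR, 140 bases before the start. In the window of the inner start, capitals in a short stretch (chr6:11232817-11232841, GRCh38, minus strand) mark GTCTG, the reverse complement of the SMAD-binding letters CAGAC, 163 bases before that start.
NEDD9 outer window: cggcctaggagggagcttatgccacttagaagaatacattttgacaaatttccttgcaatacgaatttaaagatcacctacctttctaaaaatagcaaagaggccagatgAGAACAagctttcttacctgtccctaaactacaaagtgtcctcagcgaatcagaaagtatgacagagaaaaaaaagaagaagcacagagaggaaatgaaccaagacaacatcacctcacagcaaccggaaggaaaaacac
NEDD9 inner stretch: attttccaccGTCTGataaagcaaa
Over all 35116 windows of that table, searched on both strands, CAGAC was found in 38%, AGAACA in 12.4% and the AP-1 letters TGACTCA in 4.2%. The SMAD letters occurred in 1 of 3 NEDD9 windows, 0 of 2 PXN windows, 1 of 3 TNS3 windows, 2 of 5 BCAR1 windows, 4 of 5 TNS1 windows and 2 of 3 TNS2 windows. The AP-1 letters were found in 1 BCAR1 window and in none of the other 20 windows of these genes. AGAACA occurred in 2 of 3 NEDD9 windows, as the same site 140 and 178 bases before the outer pair of starts. It was also in 1 of 5 TNS1 windows, and in no window of PXN, TNS3, BCAR1 or TNS2. Such matches describe the letters alone, and the gene-level counts do not show which start was used.

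NEDD9 was low in both lines under vehicle, lowest in S134A-GR cells, and higher after TGFβ1 in both. The gene lies at chr6:11183298-11382348 on the minus strand (GRCh38, GENCODE v44). In wt-GR cells its 3 replicates had 171.1, 172.3 and 190.6 normalized counts under vehicle and 1086, 1035 and 1086 under TGFβ1. The S134A-GR replicates had 19.79, 20.27 and 17.82 under vehicle and 314.8, 319.9 and 231.1 under TGFβ1. None of the 4 groups overlapped, and S134A-GR cells under TGFβ1 lay above wt-GR cells under vehicle but far below wt-GR cells under TGFβ1. Only 61 reads in all, 20 or 21 per library, stood behind the lowest group, which is still over the 3-read floor.

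On the scale of log2(normalized count + 1), NEDD9 was lower in S134A-GR cells by −3.14 under vehicle and −1.90 under TGFβ1, each with a standard error of 0.136. By group means this was 9.22 times lower and 3.71 times lower. Its level under TGFβ1 was 6.01 times that under vehicle in wt-GR cells and 15.0 times in S134A-GR cells, or 2.58 and 3.82 higher on the log2 scale. The response was therefore larger by 1.24 on the log2 scale (standard error 0.193) in S134A-GR cells, whereas the gain in normalized counts was larger in wt-GR cells (178 to 1069, against 19.3 to 288.6). With a pseudocount of 16 in place of 1 this excess was 0.61. Without the lowest of the S134A-GR TGFβ1 libraries, replicate 3, it was 1.39.

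**Figure D1:**
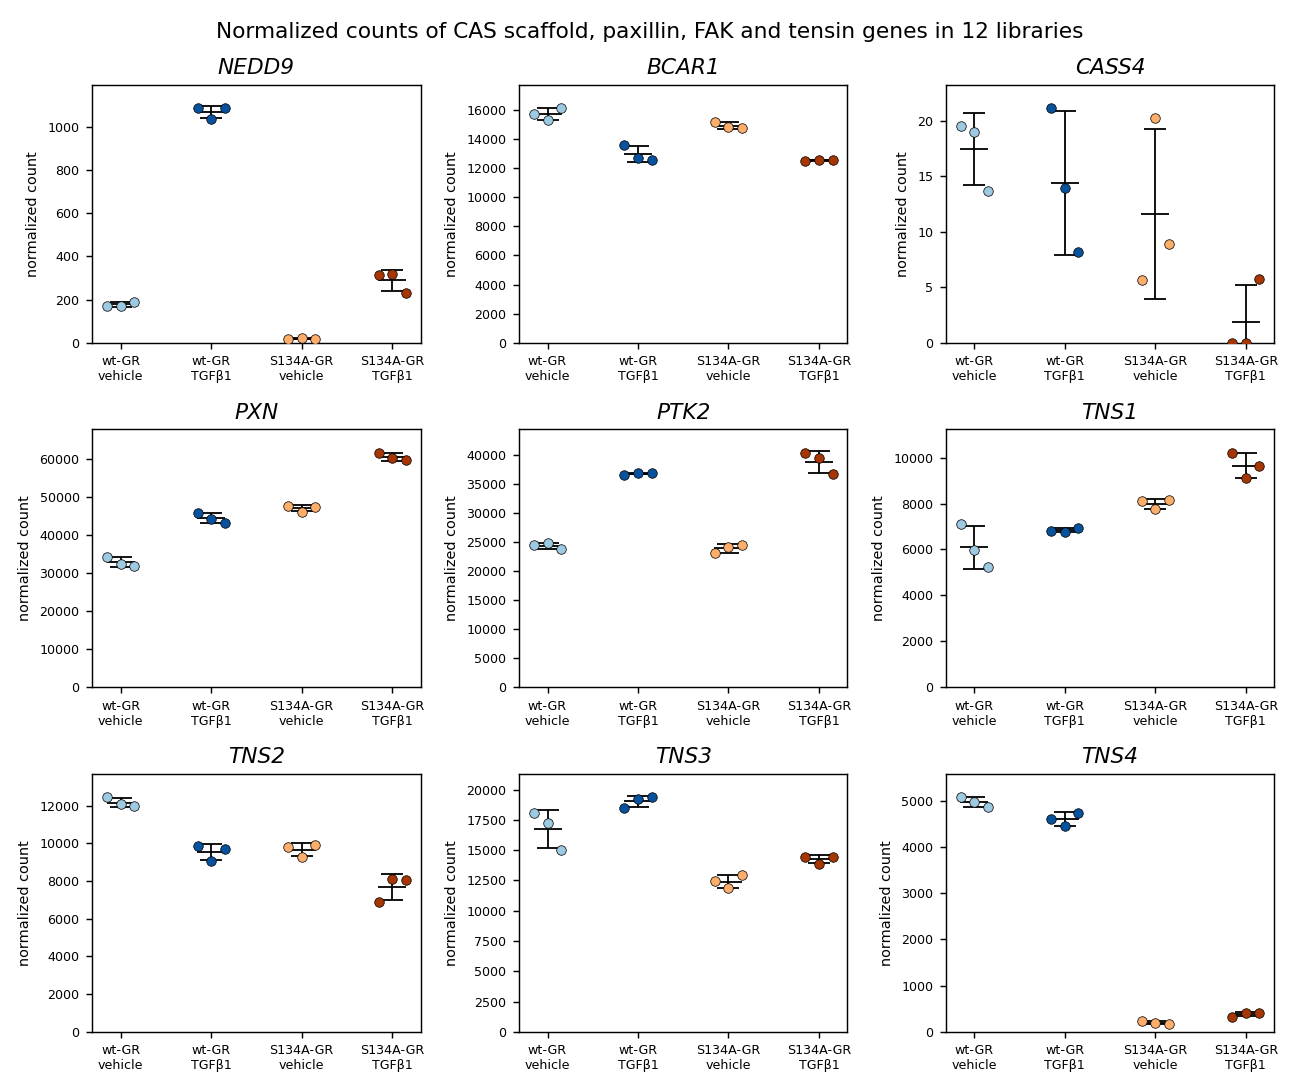
Normalized counts (vertical axes, from 0, different for each gene) of the 9 listed genes in the 4 groups named on the horizontal axes. Points are single libraries, and bars are the mean ± SD (n = 3). NEDD9 and TNS4 are far lower in S134A-GR cells, PXN and PTK2 are higher under TGFβ1 in both lines, and CASS4 stays at or below 21.1.

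BCAR1 (p130Cas), the founding and most widely expressed CAS scaffold, fell modestly after TGFβ1 in both lines and had close to the same level in each line. The replicates had 15691, 15276 and 16090 normalized counts in vehicle-treated wt-GR cells and 13571, 12701 and 12560 under TGFβ1. The S134A-GR libraries gave 15156, 14803 and 14722 under vehicle and 12468, 12524 and 12576 under TGFβ1. In each line all vehicle libraries lay above all TGFβ1 libraries. The change was −0.28 on the log2 scale in wt-GR cells (standard error 0.0351, limma with Benjamini-Hochberg adjustment over all tested genes, adjusted p = 5.01e-05) and −0.25 in S134A-GR cells (adjusted p = 0.000154). Between the lines the difference was −0.07 under vehicle (95% interval −0.15 to 0.000796, limma adjusted p = 0.0915) and −0.05 under TGFβ1 (95% interval −0.122 to 0.0284, limma adjusted p = 0.298). The responses of the lines differed by 0.03 (95% interval −0.0789 to 0.134, limma adjusted p = 0.892), opposite in direction to the response itself and small beside it.

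CASS4 (HEPL), another CAS relative, was barely detected. Its 3 replicates had 12, 18 and 13 reads in vehicle-treated wt-GR cells and 19, 19 and 8 under TGFβ1, and 6, 20 and 10 reads in S134A-GR cells under vehicle. In S134A-GR cells under TGFβ1 it had 0, 0 and 8 reads, so 2 of the 3 libraries lay under the floor of 3 reads. That group did not overlap wt-GR cells under TGFβ1 in normalized counts (0 to 5.72 against 8.15 to 21.1) but did overlap S134A-GR cells under vehicle (5.66 to 20.3). The fitted differences were −2.94 against wt-GR cells under TGFβ1 (limma adjusted p = 0.00242) and −2.57 against S134A-GR cells under vehicle (limma adjusted p = 0.0165). Both sizes rest on the pseudocount, being −0.76 and −0.61 with 16 in place of 1, where the second was no longer called (limma adjusted p = 0.0562). The second call was also lost when only the 2 groups compared entered the fit (limma adjusted p = 0.113), without S134A-GR vehicle replicate 2 (log2 difference −2.11, limma adjusted p = 0.0802), without S134A-GR TGFβ1 replicate 1 (−2.11, limma adjusted p = 0.0677) or replicate 2 (−2.11, limma adjusted p = 0.0688), and with edgeR (adjusted p = 0.0705).

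Divided by the length of annotated exon, BCAR1 made up nearly all of the summed level of NEDD9, BCAR1 and CASS4 in every group. EFS, the remaining CAS gene, is not among the symbols of the libraries, so its level is unknown. Per kb, NEDD9 stood at 17.2 ± 1.06 normalized counts (SD, n = 3) for wt-GR vehicle, 103.2 ± 2.82 for wt-GR TGFβ1, 1.86 ± 0.126 for S134A-GR vehicle and 27.9 ± 4.82 for S134A-GR TGFβ1. BCAR1 had 1705 ± 44.3, 1407 ± 59.5, 1619 ± 25.1 and 1361 ± 5.88 in the same order of groups. As a share of the per-kb level summed over NEDD9, BCAR1 and CASS4, NEDD9 therefore went from 0.995% to 6.83% with TGFβ1 in the wt-GR line, and in the S134A-GR line it went from 0.115% to 2.01%. The summed level was 1726 ± 44.6 and 1513 ± 61.9 per kb in wt-GR cells and 1623 ± 24.4 and 1390 ± 3.43 in S134A-GR cells. This sum of the measured genes was therefore lower under TGFβ1 in both lines although NEDD9 was higher. The per-kb ranges of NEDD9 (1.72 to 1.96) and CASS4 (1.12 to 4.0) overlapped for S134A-GR vehicle.

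PTK2, the kinase that binds CAS proteins and paxillin and starts their phosphorylation, rose after TGFβ1 in both lines. PTK2 had 24390, 24873 and 23847 normalized counts in vehicle-treated wt-GR cells and 36577, 36863 and 36813 under TGFβ1. Those of S134A-GR cells had 23049, 24171 and 24431 under vehicle and 40311, 39441 and 36695 under TGFβ1. The treatments did not overlap within a line, and the lines overlapped within each treatment. The response was 0.59 on the log2 scale in wt-GR cells (standard error 0.0377, limma adjusted p = 4.91e-08) and 0.70 in S134A-GR cells (limma adjusted p = 1.06e-08), and the difference between them was 0.11 (95% interval −0.00761 to 0.222, limma adjusted p = 0.567). The lines differed by −0.03 under vehicle (95% interval −0.11 to 0.0517) and 0.08 under TGFβ1 (95% interval −0.00336 to 0.159), with limma adjusted p of 0.55 and 0.107. Without S134A-GR TGFβ1 replicate 3, its lowest library in that group, the latter difference was 0.12 and passed (limma adjusted p = 0.0158).

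PXN (paxillin), a LIM-domain scaffold to which FAK is recruited at adhesions, was both higher in S134A-GR cells and higher under TGFβ1. It lies at chr12:120210439-120265771 on the minus strand. The normalized counts of PXN were 34379, 32447 and 31978 in vehicle-treated wt-GR cells and 45909, 44342 and 43179 under TGFβ1. In S134A-GR cells they had 47658, 46175 and 47408 under vehicle and 61662, 60192 and 59825 under TGFβ1. No 2 groups overlapped, and untreated S134A-GR cells already lay above TGFβ1-treated wt-GR cells. The lines differed by 0.52 under vehicle (standard error 0.0354, limma adjusted p = 3.42e-08) and by 0.45 under TGFβ1 (limma adjusted p = 1.54e-07). TGFβ1 raised PXN by 0.43 on the log2 scale in wt-GR cells (limma adjusted p = 6.3e-07) and by 0.36 in S134A-GR cells (limma adjusted p = 4.62e-06). The responses differed by −0.07 (95% interval −0.178 to 0.037, limma adjusted p = 0.696). PXN shares 1769 exon bases with the antisense gene PXN-AS1, and without a stated strand setting reads there cannot be assigned to one or the other. PXN-AS1 had group means of 162.4 to 226 normalized counts, far below those of PXN.

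TNS4, the short tensin, had the largest fold between the lines of the 9 genes. The gene lies at chr17:40475828-40501623 on the minus strand. In wt-GR cells its 3 replicates had 5080, 4986 and 4863 normalized counts under vehicle and 4620, 4454 and 4750 under TGFβ1. The S134A-GR replicates had 238.5, 200.7 and 162.1 under vehicle and 325.3, 401.9 and 415.6 under TGFβ1. The lines were an order of magnitude or more apart, and the treatments lay in opposite order in them, with every TGFβ1 library below every vehicle library in wt-GR cells and above in S134A-GR cells.

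By group means TNS4 was 24.8 times lower in S134A-GR cells under vehicle and 12.1 times lower under TGFβ1, which are −4.64 and −3.60 on the log2 scale (standard error 0.116 each). The change with TGFβ1 was −0.11 in wt-GR cells (95% interval −0.36 to 0.138) and 0.93 in S134A-GR cells (95% interval 0.683 to 1.18), and the difference between these was 1.04 (standard error 0.164). The interval in wt-GR cells includes 0 even though the replicates did not overlap, since the fit uses 1 spread for all 4 groups. In S134A-GR cells TGFβ1 left TNS4 at 380.9 ± 48.7 normalized counts (SD, n = 3), against 4608 ± 149 in wt-GR cells.

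The other 3 tensins differed between the lines by far less, and not in one direction. TNS1, an actin-binding tensin of fibrillar adhesions, was higher in S134A-GR cells. Its 3 replicates had 7089, 5961 and 5231 normalized counts in vehicle-treated wt-GR cells, 6788, 6780 and 6938 under TGFβ1, 8100, 7751 and 8135 in S134A-GR cells under vehicle and 10207, 9104 and 9638 under TGFβ1. The lines did not overlap within either treatment, and wt-GR vehicle was the most scattered group. The difference was 0.40 under vehicle (standard error 0.0795, limma adjusted p = 0.000666) and 0.50 under TGFβ1 (limma adjusted p = 0.000128).

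TNS1 gave 0.18 on the log2 scale with TGFβ1 in wt-GR cells (limma adjusted p = 0.142), where the groups overlapped, and rose by 0.27 in S134A-GR cells (limma adjusted p = 0.029). Without wt-GR vehicle replicate 1, its highest library in that group, the wt-GR value was 0.29 and passed (limma adjusted p = 0.00241). The call in S134A-GR cells was lost without vehicle replicate 1 (0.28, limma adjusted p = 0.0672), replicate 2 (0.25, limma adjusted p = 0.0963) or replicate 3 (0.28, limma adjusted p = 0.0619), and without TGFβ1 replicate 1 (0.23, limma adjusted p = 0.104) or replicate 3 (0.27, limma adjusted p = 0.068). The responses of the lines differed by 0.09 (95% interval −0.148 to 0.335).

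TNS2, which also carries a phosphatase-like domain, was lower in S134A-GR cells and fell with TGFβ1. In wt-GR cells its 3 replicates had 12431, 12062 and 11953 normalized counts under vehicle and 9829, 9045 and 9677 under TGFβ1. In S134A-GR cells they had 9796, 9273 and 9925 under vehicle and 6888, 8094 and 8030 under TGFβ1. Lines within a treatment and treatments within a line did not overlap, and wt-GR cells under TGFβ1 had about the level of S134A-GR cells under vehicle. The lines differed by −0.33 under vehicle (standard error 0.0561, limma adjusted p = 0.000191) and −0.31 under TGFβ1 (limma adjusted p = 0.000323). The change with TGFβ1 was −0.35 in wt-GR cells (limma adjusted p = 0.000397) and −0.34 in S134A-GR cells (limma adjusted p = 0.000674). TNS2 shares 64 exon bases with SPRYD3, which lies on the opposite strand and had no called difference in the 5 comparisons made.

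TNS3, a tensin known as a SRC substrate in migrating breast cells, was lower in S134A-GR cells but rose slightly with TGFβ1. Its 3 replicates had 18083, 17245 and 15027 normalized counts in vehicle-treated wt-GR cells and 18510, 19261 and 19368 under TGFβ1. In S134A-GR cells they had 12420, 11865 and 12954 under vehicle and 14453, 13874 and 14415 under TGFβ1. All S134A-GR libraries lay below all wt-GR libraries, by −0.43 under vehicle (standard error 0.0562, limma adjusted p = 1.75e-05) and −0.42 under TGFβ1 (limma adjusted p = 2.57e-05).

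The rise of TNS3 with TGFβ1 was 0.19 on the log2 scale in wt-GR cells (limma adjusted p = 0.0299) and 0.20 in S134A-GR cells (limma adjusted p = 0.0232). In wt-GR cells the value was 0.11 without vehicle replicate 3 (limma adjusted p = 0.0784), 0.18 without TGFβ1 replicate 2 (limma adjusted p = 0.0853) and 0.17 without TGFβ1 replicate 3 (limma adjusted p = 0.0945), and the call was also lost when only the 2 groups compared entered the fit (limma adjusted p = 0.112). In S134A-GR cells the call was lost without vehicle replicate 1 (0.20, limma adjusted p = 0.0652) or replicate 2 (0.17, limma adjusted p = 0.1), and without TGFβ1 replicate 1 (limma adjusted p = 0.0664) or replicate 3 (limma adjusted p = 0.0665), at 0.19 each.

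**Figure D2:**
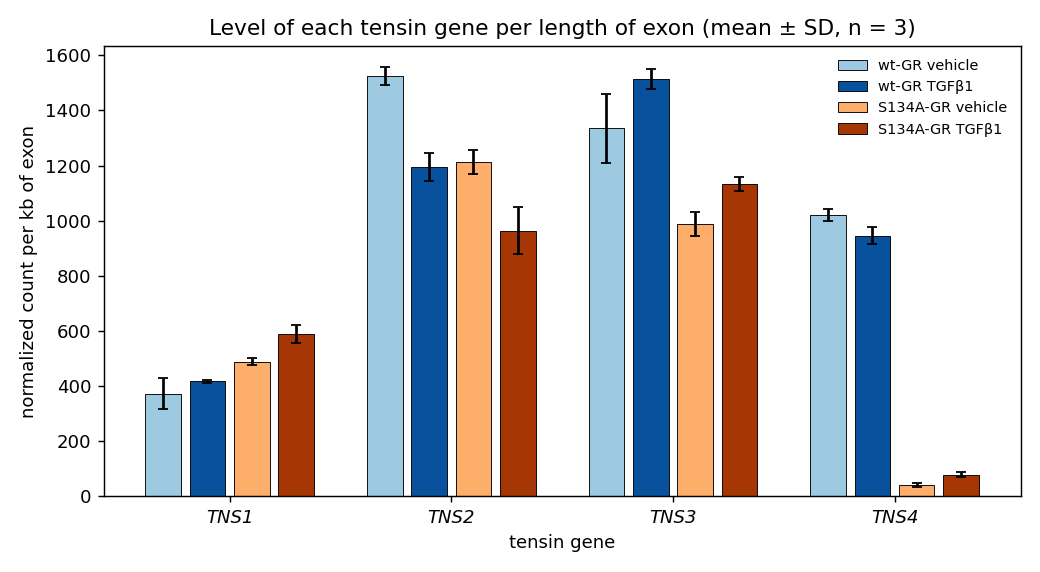
Normalized counts per kb of annotated exon (vertical axis, from 0) for the 4 tensin genes, as bars of the group mean with the SD (n = 3). TNS4 stands at 1021 and 945.6 in wt-GR cells and at 41.1 and 78.2 in S134A-GR cells, while the other 3 tensins remain within 372.3 to 1525 in every group.

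Per length, the tensins as a family were less abundant in S134A-GR cells, and their order was different. The summed level of the 4 tensins was, under vehicle and TGFβ1, 4254 ± 231 and 4074 ± 79.3 normalized counts per kb (SD, n = 3) in the wt-GR line and 2731 ± 95.9 and 2764 ± 62.2 in the S134A-GR line. TNS4 gave 24% and 23.2% of this sum in wt-GR cells and 1.51% and 2.82% in S134A-GR cells. The share of TNS1 was 8.72% and 10.3% in wt-GR cells and 17.9% and 21.3% in S134A-GR cells. A share also depends on the sum, which was lower in the latter line. TNS2 led TNS3 under vehicle in both lines (35.9% against 31.3%, and 44.4% against 36.2%), and TNS3 led TNS2 under TGFβ1 (37.2% against 29.3%, and 41% against 34.8%).

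In wt-GR cells under vehicle the per-kb order of all 9 genes was PXN (4287 to 4608 normalized counts per kb), PTK2 (1735 to 1810), BCAR1 (1661 to 1749), TNS2 (1501 to 1561), TNS3 (1196 to 1439), TNS4 (997.9 to 1043), TNS1 (319.6 to 433.1), NEDD9 (16.5 to 18.4) and CASS4 (2.70 to 3.86). Of the neighbours in that order, PTK2 and BCAR1 were the pair whose ranges overlapped. In S134A-GR cells under vehicle TNS4 (33.3 to 48.9) stood below TNS1 (473.5 to 497), and NEDD9 and CASS4 were last with overlapping ranges. The per-kb scale uses all annotated exon bases, which need not all be transcribed in these cells.

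**Figure D3:**
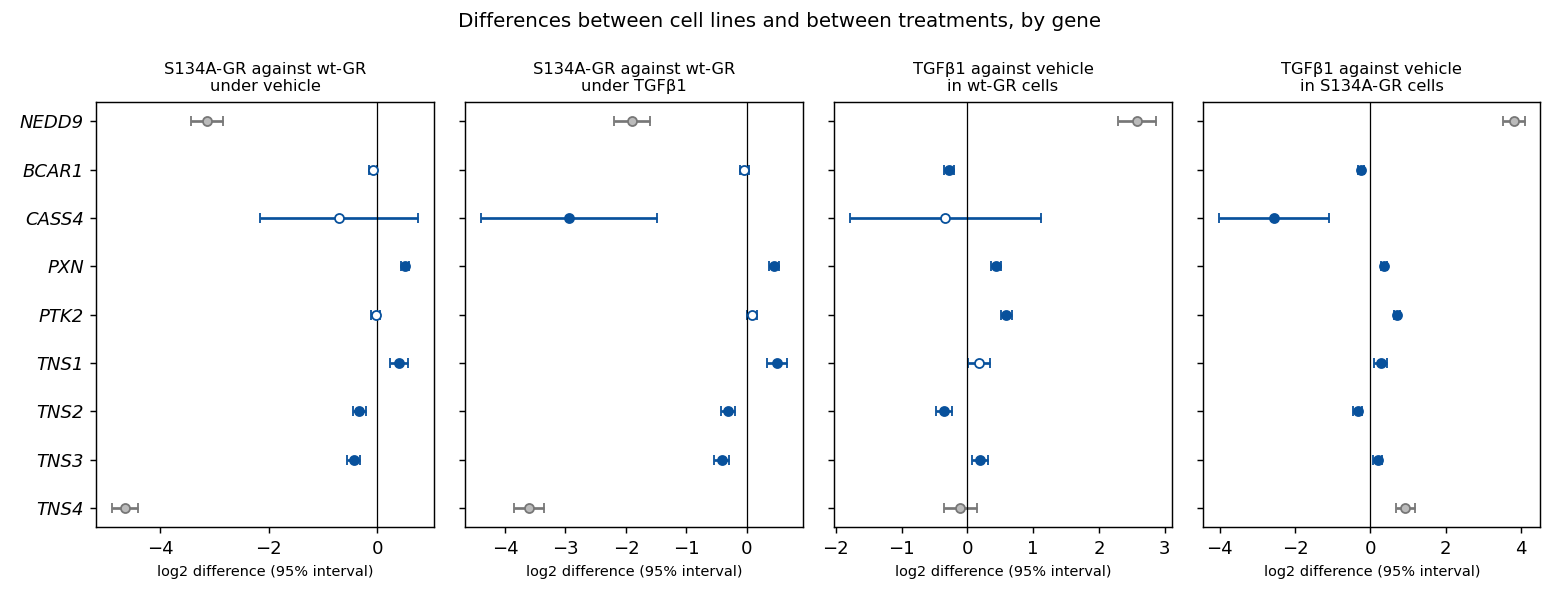
Log2 differences (horizontal axes, different for each panel) of the 9 listed genes in 4 comparisons, with 95% intervals from the limma fit of 12 libraries. Blue filled points passed an adjusted p of 0.05, open points did not, and grey points (NEDD9, TNS4) were not tested. Intervals are narrow for the abundant genes and wide for CASS4, for example −4.40 to −1.48 between the lines under TGFβ1.

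The 7 listed members other than NEDD9 and TNS4 were also counted together, beside the share of all genes called in the same comparison. That share was not matched for expression. The members were chosen with earlier results of these data known, so the counts are a description. Under vehicle 4 of the 7 differed between the lines (limma, adjusted p under 0.05), against 51.5% of all genes tested. Of these, 2 were higher in S134A-GR cells (PXN and TNS1; 25% of all genes were called higher) and 2 lower (TNS2 and TNS3; 26.5% of all genes). Under TGFβ1 5 of the 7 differed, against 48.8% of all genes, with the same 2 higher (23.1% of all genes) and CASS4, TNS2 and TNS3 lower (25.7%).

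With TGFβ1, 5 of the 7 changed in wt-GR cells, against 21% of all genes tested. PTK2, PXN and TNS3 were higher (11.2% of all genes) and BCAR1 and TNS2 lower (9.82%). In S134A-GR cells all 7 were called, against 18.7% of all genes, with PTK2, PXN, TNS1 and TNS3 higher (10%) and BCAR1, CASS4 and TNS2 lower (8.69%). That count was 4 without S134A-GR vehicle replicate 2 or without S134A-GR TGFβ1 replicate 1, which removed TNS1, TNS3 and CASS4. Calls over all 18579 genes tested fell as well, to 2639 and 2860, against 3475 in the main fit. The 2 comparisons of the lines use different libraries from each other, as do the 2 of treatment, but each comparison of the lines shares a group with each comparison of treatment.

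Comparing how the lines responded, 0 of the 7 passed with limma, 0 with edgeR and 0 with DESeq2. An unadjusted limma p under 0.05 was found for 1 of the 7 (CASS4), and for 1728 of the 18579 genes tested. Among all genes tested 0.414% were called, 0.167% with a larger value in S134A-GR cells and 0.248% with a smaller one. Apart from CASS4 (−2.23, 95% interval −4.30 to −0.17), the 6 other estimates lay between −0.07 and 0.11.

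A list of 46 genes whose products act with CAS proteins, paxillin or tensins was then read the same way, and all 46 were listed and tested. This list too was drawn up with earlier results of these data known. Between the lines 29 were called under vehicle (63%, against 51.5% of all genes tested), 6 higher and 23 lower in S134A-GR cells. After treatment with TGFβ1 31 were called (67.4%, against 48.8%), 7 higher and 24 lower. The median log2 difference of the list was −0.155 and −0.128, against 0.0191 and 0.0117 over all genes tested. With TGFβ1 20 were called in wt-GR cells (43.5%, against 21%), 14 higher and 6 lower. In S134A-GR cells 17 were called (37%, against 18.7%), 11 higher and 6 lower. The medians were 0.015 and 0.051 against −0.00459 and −0.00972 over all genes. These shares of all genes were not matched for expression either, and they include genes with as few as 10 reads summed. With the expression filter of edgeR 15866 genes were kept. Of these, 9461 were called between the lines under vehicle and 9024 under TGFβ1. For the response to TGFβ1, 4024 were called in the wt-GR line and 3614 in the other line. The counts of the list stayed at 29, 31, 20 and 17, so its excess depends on the genes it is set against. Against the kept genes it was smaller in each comparison, and it shrank more between the lines than for the response to TGFβ1.

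Most of the paxillin family and paxillin-binding genes called between the lines were lower in S134A-GR cells, where PXN was higher. Of these 11 genes, 9 were called under vehicle (51.5% of all genes), 8 of them lower (26.5%). With TGFβ1 10 were called (48.8%), 9 of them lower (25.7%). The group had a median log2 difference of −0.325 and −0.282. LPXN (leupaxin), a close relative of paxillin, had 7053 ± 50.8 and 9561 ± 19.9 normalized counts (SD, n = 3) in vehicle-treated wt-GR cells and TGFβ1, and 5277 ± 99.4 and 6480 ± 88.5 in S134A-GR cells. Its differences were −0.42 and −0.56 on the log2 scale (limma adjusted p = 6.08e-08 and 3.66e-09), where those of PXN were positive. ARHGEF7 (β-PIX), a RAC and CDC42 exchange factor held at paxillin by GIT proteins, was lower by −0.51 and −0.43 (limma adjusted p = 2.8e-08 and 1.83e-07), and GIT2 was the 1 gene of the group that was higher. PARVB was called lower under vehicle at 24.2 against 13.8 normalized counts (limma adjusted p = 0.0442), but the call was kept in only 7 of 22 alternatives, and without S134A-GR vehicle replicate 2 the difference went from −0.85 to −0.54 (limma adjusted p = 0.193).

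Calls among the kinases, adaptors and linkers are read against the same shares of all genes, 51.5% under vehicle and 48.8% under TGFβ1. Of the 10 adhesion kinases and phosphatases, 6 were called under vehicle and 7 under TGFβ1. Under vehicle these were SRC and ABL1, higher in S134A-GR cells, and FYN, LYN, YES1 and PTPN12, which were lower. PTPN12 (PTP-PEST), a phosphatase that acts on CAS proteins, had −0.43 under vehicle (limma adjusted p = 1.19e-06) and −0.26 under TGFβ1 (limma adjusted p = 0.00015). Of the 12 adaptors and exchange factors downstream of CAS, 8 were called under each treatment, 7 of them lower (26.5% and 25.7% of all genes were called lower) and RAPGEF1 higher. SH2D3A, a CAS-binding adaptor, had −0.48 under TGFβ1 (limma adjusted p = 0.00159). Of the 10 linkers between integrins and actin, 4 were called under vehicle and 5 under TGFβ1. FERMT1 (kindlin-1), an integrin activator, was higher by 0.42 and 0.53 (limma adjusted p = 9.27e-07 and 1.03e-07), as was TLN2, a talin, by 0.44 and 0.52 (limma adjusted p = 0.00348 and 0.00109). FERMT2 (kindlin-2) was lower by −0.30 and −0.22 (limma adjusted p = 1.55e-05 and 0.000316).

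With TGFβ1 the largest partner response was that of FERMT1, which in wt-GR cells went from 2216 ± 64.5 to 3785 ± 95.7 normalized counts (SD, n = 3). In the S134A-GR line it went from 2965 ± 83.6 to 5467 ± 124. This was 0.77 and 0.88 on the log2 scale (limma adjusted p = 7.3e-09 and 2.02e-09). LIMS1 (PINCH-1), which links integrin-linked kinase to adhesions, rose by 0.46 and 0.58 (limma adjusted p = 0.000104 and 1.53e-05), and the kinase ABL1 by 0.53 in both lines (limma adjusted p = 4.81e-08 and 5.38e-08). FERMT2 and LPXN also rose in both, by 0.38 and 0.46 and by 0.44 and 0.30. ARHGEF6 (α-PIX) fell in both, by 0.44 and 0.40 on the log2 scale (limma adjusted p = 0.00108 and 0.00262). PTK2B (PYK2), the closest relative of FAK, went the other way from PTK2, with −0.40 in wt-GR cells (limma adjusted p = 0.00136) and −0.27 in S134A-GR cells (limma adjusted p = 0.0204). The latter call was lost without S134A-GR vehicle replicate 1 (−0.26, limma adjusted p = 0.0756) or replicate 2 (−0.27, limma adjusted p = 0.059), or without S134A-GR TGFβ1 replicate 1 (−0.24, limma adjusted p = 0.0684).

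**Figure D4:**
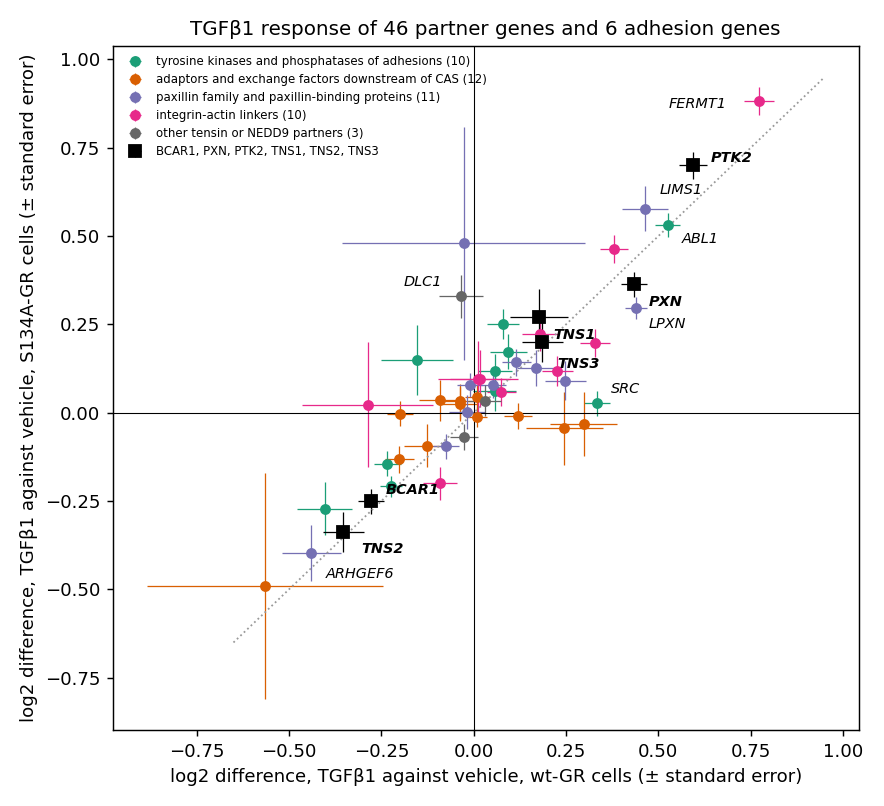
Log2 difference with TGFβ1 in wt-GR cells (horizontal axis) against that in S134A-GR cells (vertical axis), each ± its standard error, for the 46 partner genes (circles, coloured by role) and 6 of the genes described above (black squares). The dotted line marks equal responses. FERMT1 and PTK2 lie at the upper right, TNS2 and BCAR1 at the lower left, and SRC lies below the line at 0.33 and 0.03.

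SRC, the kinase that phosphorylates CAS proteins together with FAK, was the 1 partner called for a difference between the responses, at an adjusted p passed by 0.414% of all genes. Its 3 replicates had 7852, 7726 and 7600 normalized counts in vehicle-treated wt-GR cells, 10033, 9274 and 9918 under TGFβ1, 12802, 12647 and 12449 in S134A-GR cells under vehicle and 12584, 13069 and 12955 under TGFβ1. The wt-GR groups did not overlap, the S134A-GR groups did, and all S134A-GR libraries lay above all wt-GR libraries. SRC rose by 0.33 in wt-GR cells (limma adjusted p = 9.49e-06) and gave 0.03 in S134A-GR cells (95% interval −0.0496 to 0.103, limma adjusted p = 0.684). The difference was −0.307 (standard error 0.0502, limma adjusted p = 0.0163). It was lost without wt-GR vehicle replicate 2 (−0.31, limma adjusted p = 0.0644), wt-GR TGFβ1 replicate 1 (−0.29, limma adjusted p = 0.0606) or replicate 3 (−0.29, limma adjusted p = 0.0602), and without S134A-GR vehicle replicate 1 (−0.30, limma adjusted p = 0.0689) or replicate 2 (−0.31, limma adjusted p = 0.0538). DLC1, a protein that binds tensins, rose by 0.33 in S134A-GR cells (limma adjusted p = 0.00139) and gave −0.03 in wt-GR cells (limma adjusted p = 0.755). Its difference of 0.36 did not pass with limma (adjusted p = 0.115) but passed with DESeq2 (adjusted p = 0.00553), and with limma when wt-GR vehicle replicate 3 was left out (0.43, adjusted p = 0.0244). Those 2 settings also called more genes in all for this difference, 210 and 166 against 77 in the main fit.

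A pair of descriptions places NEDD9 and TNS4 among other genes. Over the 12 libraries and 13280 genes with a mean of at least 50 normalized counts, the profiles most like that of NEDD9 by Pearson's r on the log2 scale were those of LPAR5 (0.9943), ABLIM3 (0.9928), ATG9A (0.99), GFPT2 (0.9891) and TGM2 (0.9889). Those most like TNS4 were CDH11 (0.9968), UPP1 (0.9961), SDC4 (0.994), CAB39L (0.9932) and ERRFI1 (0.9929). The 12 libraries fall into 4 groups that the points share, so such values mostly compare group means. Pearson's r also takes no account of the size of a change. CDH11, for example, had means under vehicle and TGFβ1 of 6655 and 6479 normalized counts in wt-GR cells and 1012 and 1322 in S134A-GR cells. SDC4 changed less, with 14890 and 15210 in wt-GR cells and 8855 and 10120 in S134A-GR cells. ATG9A, listed for NEDD9, had 12320 and 14650 in wt-GR cells and 10340 and 12640 in S134A-GR cells.

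On the chromosome, tested protein-coding neighbours of NEDD9 and of TNS4 differed between the lines in both directions. The 5 on each side of NEDD9 had a median log2 difference between the lines under vehicle of −0.0752. They ran from −1.43 for GCM2 to 1.53 for ADTRP, and GCM2 had only 4.99 normalized counts in wt-GR cells. Of these 10 genes 5 were below 0, including SMIM13 (−0.604) and TMEM170B (−0.815). In vehicle-treated wt-GR cells this pair had 2725 and 1003 normalized counts, against 1793 and 565.2 in S134A-GR cells. The 5 on each side of TNS4 had a median of −0.13, from −2.65 for KRT222 to 0.393 for GJD3, and 8 of these 10 were below 0. Among these 8, TOP2A (−0.0179) and KRTAP2-3 (−0.0417) lay close to 0. CCR7, the next gene after TNS4, gave −2.13, and both it and KRT222 were near the floor in S134A-GR cells (1.93 and 1.52 normalized counts, against 9.75 and 14.1 in wt-GR cells). IGFBP4, on the other side of TNS4, gave −0.49. Over all genes tested the median under vehicle was 0.0191. Under TGFβ1 the 10 neighbours of TNS4 had a median of −0.115, with 6 below 0. The 10 of NEDD9 had a median of −0.163, also with 6 below 0.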

How the data were processed

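RNA-seq libraries of the 12 samples were made and processed by the authors, who used HISAT2 for alignment (hg38), featureCounts (Subread) for gene counts and DESeq2 for normalization (version 1.22.2 per the submitters' notes). Each deposited value is a signal, the normalized count of 1 gene symbol in 1 library. Annotation, strand setting and whether a pair counted once are not given in the sources used here. All deposited values were whole multiples of 1 step per library (100% within 0.01), so reads were recovered (56362036 to 129832227 per library). Replicates differed beyond sampling noise, with a chi-square of 8.69 to 43.7 for each degree of freedom.

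The main test was limma (3.58.1, R 4.3.3) on log2(normalized count + 1), which understates changes of low genes, for 18579 genes with at least 10 reads summed, 4 group means, eBayes with trend, Benjamini-Hochberg over all tested genes, calls at 0.05. All adjusted p are from limma unless edgeR (4.0.16) or DESeq2 (1.42.0), run on recovered reads, is named. The fit was tested on simulated data with large differences planted between the lines, all in abundant genes. Small changes, changes of low genes, changes with TGFβ1 and differences in response were not planted. Groups came from the sample labels. Positions and exon lengths came from GENCODE v44 on GRCh38, promoters from a RefSeq-derived table. The members and gene lists were chosen with earlier results of these data known. Named partners were up to 6 called genes of largest difference per comparison plus any called for the difference in response, and other partners named among the counts were added after their values were seen. Alternatives were other pseudocounts (0.5, 16), filters, TMM scaling, edgeR, DESeq2, a replicate block, the compared groups alone, and each library left out.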

Additional observations from a re-analysis of the deposited data

Results flagged for a closer look

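TNS4 stands out because all 3 TGFβ1 libraries lay below all 3 vehicle libraries in wt-GR cells and above them in S134A-GR cells. The wt-GR difference was small, −0.11 on the log2 scale with a 95% interval of −0.36 to 0.138 that includes 0. The responses differed by 1.04 on the log2 scale, and the difference was not tested, since TNS4 was selected on it. SRC stands out because the difference between the responses was tested and passed, at −0.307 on the log2 scale (limma adjusted p = 0.0163), and it lost the call when any of 5 single libraries was left out.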

How the results depend on the processing

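Of 763 recomputed values for the 7 tested members, 741 stayed on the same side of the threshold, 20 lost the call and 2 gained it. The sign changed in 10, all of them differences in response of TNS1, TNS2 or TNS3 that lay near 0 and were not called, and in 0 of the called values. Leaving out 1 library at a time gave 4 to 4, 5 to 6, 4 to 6, 4 to 7 and 0 to 0 called members for the lines under vehicle, the lines under TGFβ1, TGFβ1 in wt-GR cells, TGFβ1 in S134A-GR cells and the difference in response. Over all genes tested the same settings gave 8478 to 9695, 8063 to 9381, 2800 to 4377, 2497 to 3830 and 22 to 166 calls. For the difference in response of the partner list (1 called), DESeq2 gave 3 (SRC, DLC1, BCAR3) and leaving out 1 library gave 0 to 2. Over all 18579 genes tested DESeq2 called 210 for this difference, against 77 in the main fit. For NEDD9 a pseudocount of 16 gave −2.46 between the lines under vehicle, 3.10 for TGFβ1 in S134A-GR cells and 0.61 for the difference, and without S134A-GR TGFβ1 replicate 3 the values were −1.75 between the lines under TGFβ1, 3.97 and 1.39. TNS4 moved by less than 1 SD under every alternative. The causes were not tested, apart from what each alternative removes. Replicate numbers are shared across groups, but same-numbered libraries did not deviate together (r −0.105 to 0.128 over 18 pairs, 2 of them over 0.1), and 4 of 12 libraries correlated best with their own number. A fit with the replicate block called 4, 5, 5, 7 and 0 members and 28, 30, 19, 17 and 1 partners, against 29, 31, 20, 17 and 1 without it, and 58 genes in all for the difference in response against 77. Depth limits CASS4 and, in S134A-GR cells under vehicle, NEDD9. With 10 neighbours on each side the medians were −0.0849 (NEDD9) and −0.11 (TNS4).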
